A study of Mus musculus with 10 samples.

Results

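The genes of transport between the endoplasmic reticulum (ER) and the Golgi apparatus are described here in tongues of 4NQO-exposed C57BL/6J mice. 4NQO is a chemical carcinogen that induces lesions of the mouth. The list held 40 genes of coat proteins, their GTPases, cargo receptors and fusion factors, out of 27151 genes in the table, and all 40 passed the filter on low values that left 17088 genes for testing. They were chosen by gene symbol after a comparison of the same libraries had been seen, so their differences between the groups are given as a description, without p-values. Poly-A RNA was sequenced from 6 libraries of 4NQO-exposed tongues treated with SP2509, an inhibitor of the histone demethylase LSD1, and from 4 libraries of 4NQO-exposed tongues treated with vehicle. Both groups carried the C57BL/6J genotype and the 4NQO exposure. The titles of the treated libraries read SP2509h, and the labels give neither the meaning of the h nor the dose, the time, or the age and number of mice behind a library, so the spread between libraries may be technical in part.

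Proteins made in the ER leave it in vesicles coated with COPII, which the small GTPase Sar1 starts to build on the membrane. Sec23 and Sec24 form the inner COPII layer and Sec24 binds cargo, Sec13 and Sec31 form the outer cage, and Sec16 marks the exit sites. Vesicles coated with COPI, a complex called coatomer that the GTPase Arf1 recruits, carry escaped ER proteins and recycling receptors back from the Golgi. Secretory cells such as those of salivary and lingual glands hold large amounts of this machinery, and it is among the targets of the unfolded protein response, which ATF6 and XBP1 drive when ER load is high.

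Values are normalised reads, that is whole reads divided by a size factor of the library. The whole reads summed to between 15748571 and 19375555 in SP2509 libraries and to between 9180844 and 14768955 in vehicle libraries, and mitochondrial genes took at most 32.2% of them in SP2509 (median 27.5%) and at least 35.3% in vehicle (median 46.8%). Within SP2509 there were 2 close pairs of libraries, replicates 1 with 2 and replicates 4 with 5. From genes with few reads to genes with many, the spread between replicates relative to counting error grew by 1.05 and 0.217 in these pairs, against 7.62 to 150 in the other 19 pairs of libraries of 1 group. Means ± SD therefore run over 4 SP2509 units (the pairs averaged, replicates 3 and 6 alone) and 4 vehicle libraries, n = 4 each. Markers of keratinocytes and skeletal muscle, the main tissues of the tongue, were high in every library, and the keratinocyte sum (12 genes) ran from 56641 in SP2509 replicate 6 to 285962 in replicate 3, and from 93518 to 130572 in vehicle. A list of 14 lingual gland genes summed to 476737 and 493664 normalised reads in SP2509 replicates 4 and 5, to 12426 in SP2509 replicate 6, to 33.2 to 42.1 in SP2509 replicates 1 to 3, and to 51.9 to 424 in vehicle libraries, where 10 of the 14 genes were at 0 in at least 1 library. Skeletal muscle markers (12 genes) summed to 904401 in SP2509 replicate 6, to between 330546 and 435076 in SP2509 replicates 1 to 5, and to between 193690 and 405066 in the vehicle libraries. Of 8 immune markers 7 were tested, 0 rose and 1 fell (Itgax, limma adjusted p under 0.05), while their sum was 1741 to 5679 in SP2509 and 1043 to 1677 in vehicle. Among them S100a8, a neutrophil gene, was not called and had 1115 to 5103 in SP2509 and 184 to 1005 in vehicle. S100a8 made up most of the immune sum in every SP2509 library. Of the other tested immune markers Cd68, Csf1r and Cd3e had positive log2 fold changes (0.48 ± 0.18, 0.10 ± 0.22 and 0.49 ± 0.58, SE). Those of Ptprc, Adgre1 and Itgax were negative (-0.69 ± 0.22, -0.20 ± 0.33 and -1.06 ± 0.27, SE). Cd79a, not tested, had 0.83 to 5.96 in SP2509 and 5.56 to 27.6 in vehicle. In such whole tissue, fewer cells of a type and less RNA per cell cannot be told apart.

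Most of the genes were higher with SP2509. In the fit over all 10 libraries (limma on log2 of the value plus 1, adjusted p under 0.05 over 17088 genes), 16 of the 40 genes were called higher and 0 lower, beside 4.95% of all tested genes called higher and 4.15% called lower. None of the 40 was lower at an unadjusted p under 0.05 either, a share that was not counted over all tested genes. edgeR and DESeq2 also called 0 lower, beside 585 and 1388 of the 17088 tested genes. Of the 40 genes 38 had a positive fold change, beside 51.9% of tested genes. Their median log2 fold change was 0.58, against 0.02 over all tested genes. For 18 of them every SP2509 library lay above every vehicle library, beside 6.54% of tested genes, and for the other 22 the groups overlapped. These counts come from the contrast that the genes were selected on and support nothing by themselves.

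**Figure D1:**
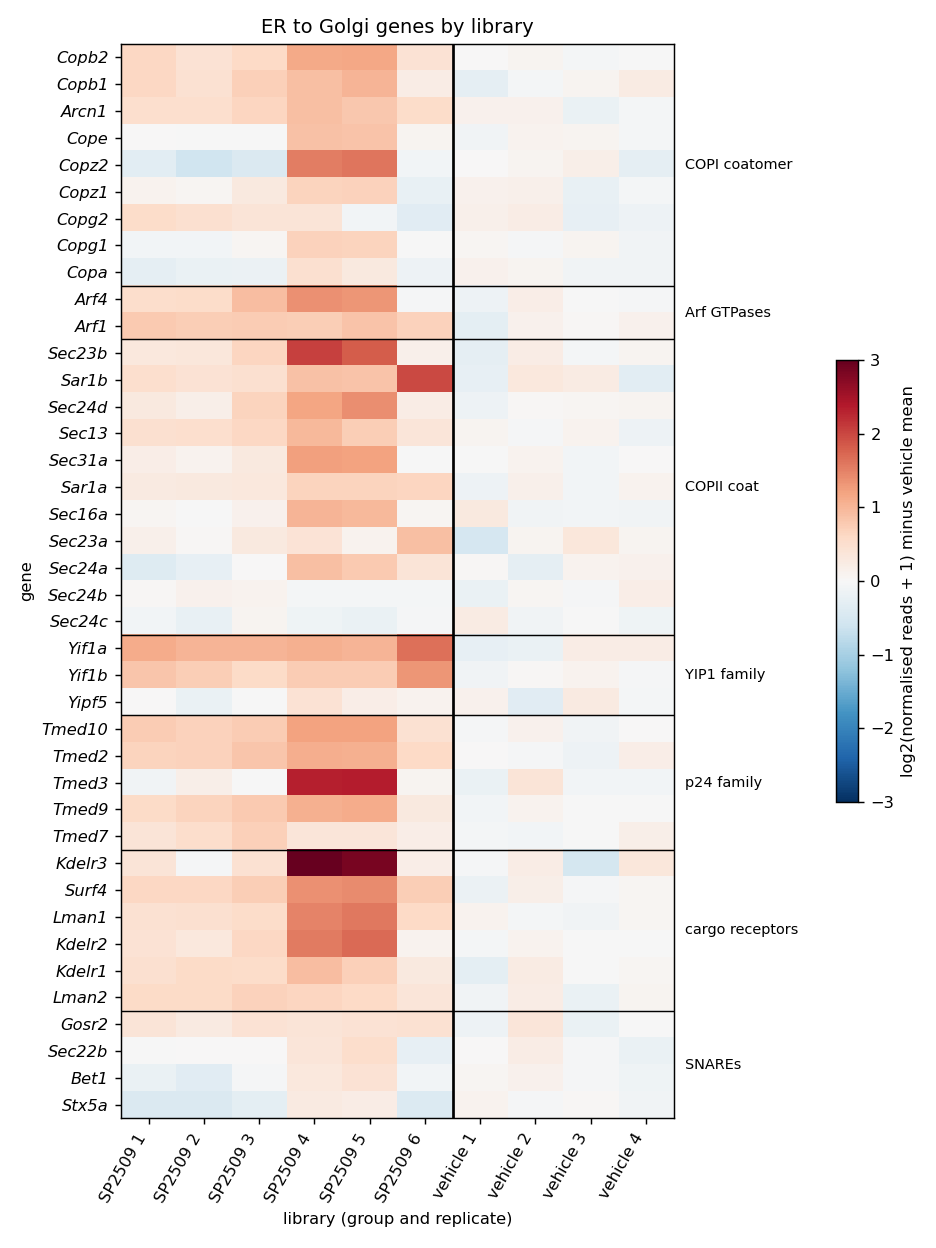
Each row is 1 of the 40 genes and each column 1 library, the 6 SP2509 libraries left of the 4 vehicle libraries; colour gives log2(normalised reads + 1) minus the vehicle mean of that gene. SP2509 replicates 4 and 5 form the warmest columns, and genes such as Arf1, Tmed2, Yif1a and Surf4 are above the vehicle mean in all 6 SP2509 libraries.

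The size of the group difference depended on 1 pair of libraries. The median over the 40 genes relative to the vehicle mean was 0.33 in SP2509 replicates 1 and 2, 0.47 in replicate 3, 0.86 in replicates 4 and 5 and 0.22 in replicate 6 on the log2 scale, while that of all tested genes was 0.03, 0.02, 0.04 and 0.01 in the same order. Replicates 4 and 5, the libraries with the most gland transcript, held the highest of the 4 SP2509 values for 30 of the 40 genes, replicate 6 for 5, replicate 3 for 4 and the pair of replicates 1 and 2 for 1. This was not counted over all tested genes. In the same order of libraries, the medians of 90 other tested ER to Golgi genes, described below, were 0.14, 0.13, 0.39 and 0.20. Without replicates 4 and 5 the median fold change of the 40 genes was 0.36, and 11 of them were called higher, all of them among the 16, beside 1.28% of tested genes. Copb1, Sar1a, Tmed7, Lman2 and Kdelr1 were called in the fit over 10 libraries but not without that pair. Without vehicle replicate 1, 6 genes were called, beside 171 of the 17088 tested genes, and with the pairs treated as correlated 10 were called, beside 1.29%. With each pair merged into 1 sample no gene of the table was called (0.00% of tested genes, limma, lowest adjusted p = 0.0718), while 22 of the 40 genes and 3632 of all tested genes had an unadjusted p under 0.05. edgeR with the pairs summed also called 0, with 23 of the 40 genes and 3875 of all tested genes at an unadjusted p under 0.05, and DESeq2 with the pairs summed called 16 of the 40 beside 5.04% of tested genes. The SEs printed with fold changes come from the fit over 10 libraries, which counts the 2 libraries of a pair as independent. With the pairs merged the SE was larger for genes such as Arf1 (0.14 against 0.11) and Lman2 (0.136 against 0.111). It was smaller for genes such as Copz2 (0.39 against 0.43) and Kdelr3 (0.56 against 0.60). The part of gland, muscle or immune content in the group differences of the 40 genes was not tested.

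**Figure D2:**
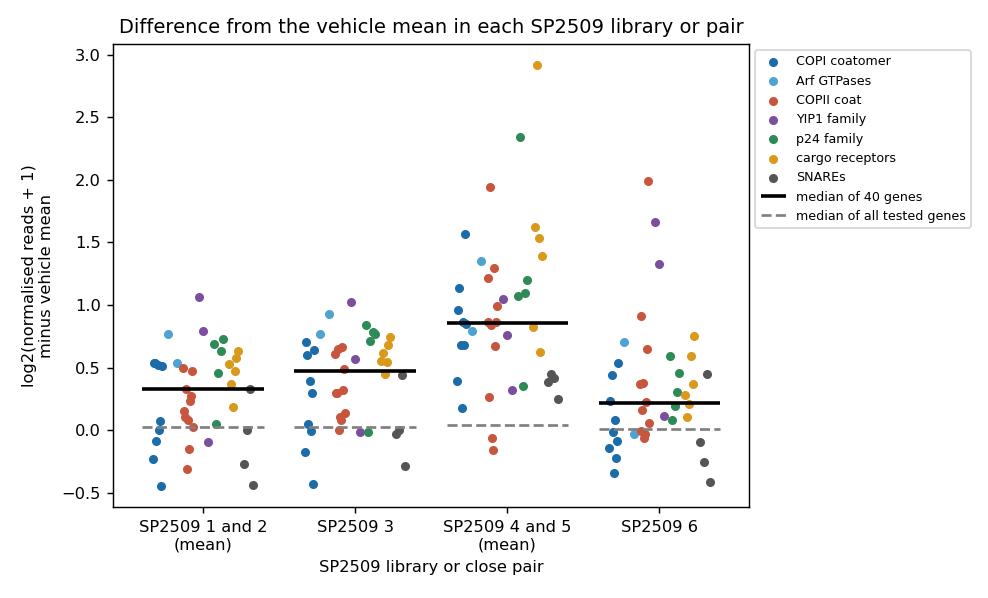
Points are the 40 genes, coloured by role, for the mean of SP2509 replicates 1 and 2, replicate 3, the mean of replicates 4 and 5, and replicate 6; the vertical axis gives log2(normalised reads + 1) minus the vehicle mean. Black bars mark the medians of the 40 genes (0.33, 0.47, 0.86 and 0.22) and dashed grey bars those of all tested genes, which lie between 0.01 and 0.04.

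Promoter sequence was not used to choose the genes. RefSeq promoter windows on GRCm38.p6 (250 bases before to 50 bases after a start) were found for 34 of the 40 genes, in 41 windows. The motif TGACGTGG, the core of the unfolded protein response element that ATF6 and XBP1 bind, stood on either strand in 8 of the 41 windows (19.5%), against 0.981% of the 15387 windows of tested genes and 0.676% of all 32851 windows. These 8 windows belonged to 7 genes, Arf1, Copb1, Copb2, Kdelr3, Sec23a, Sec24d and Stx5a. Of windows of genes called higher 4 of 15 held it, and of windows of the rest of the 40 genes 4 of 26. Of 94 windows of the other ER to Golgi genes, described below, 3 held it (3.19%). The shorter core ACGTG, which lies within the longer motif, stood in 65.9% of the 41 windows. It stood in 30.9% of the 94 windows of the other ER to Golgi genes and in 24.1% of windows of tested genes. CCAAT stood in 43.9% of the 41 windows, in 48.9% of those 94 windows and in 36.8% of windows of tested genes. The ATF4 element TGATGNAA was found in 1 window, that of Kdelr1 (2.44%, against 2.30% of windows of tested genes). No window held the ER stress element (CCAAT and CCACG separated by 9 bases, both strands; 0.123% of windows of tested genes), its second form ERSE-II (0.0585%) or a heat shock element (77 of the 15387 windows of tested genes). A match describes these letters only. The windows of 2 coatomer genes called higher, Copb1 and Copb2, and of Kdelr3 and Sec24d, which were highest in SP2509 replicates 4 and 5, are shown 5′ to 3′ in the direction of transcription, with the motif or its reverse complement in capitals.
Copb1 (chr7:114254631-114254930, minus strand): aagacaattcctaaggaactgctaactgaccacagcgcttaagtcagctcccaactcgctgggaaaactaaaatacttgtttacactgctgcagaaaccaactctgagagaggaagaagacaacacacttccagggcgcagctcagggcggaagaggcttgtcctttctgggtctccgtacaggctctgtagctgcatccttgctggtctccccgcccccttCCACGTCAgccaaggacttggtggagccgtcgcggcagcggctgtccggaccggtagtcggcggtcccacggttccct
Copb2 (chr9:98563481-98563780, plus strand): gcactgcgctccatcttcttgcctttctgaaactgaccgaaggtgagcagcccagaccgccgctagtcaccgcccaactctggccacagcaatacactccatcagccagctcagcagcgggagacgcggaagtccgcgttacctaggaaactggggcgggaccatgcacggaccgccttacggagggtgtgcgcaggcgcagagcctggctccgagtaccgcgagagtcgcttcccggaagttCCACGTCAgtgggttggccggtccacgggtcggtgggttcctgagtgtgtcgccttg
Kdelr3 (chr15:79516158-79516457, plus strand): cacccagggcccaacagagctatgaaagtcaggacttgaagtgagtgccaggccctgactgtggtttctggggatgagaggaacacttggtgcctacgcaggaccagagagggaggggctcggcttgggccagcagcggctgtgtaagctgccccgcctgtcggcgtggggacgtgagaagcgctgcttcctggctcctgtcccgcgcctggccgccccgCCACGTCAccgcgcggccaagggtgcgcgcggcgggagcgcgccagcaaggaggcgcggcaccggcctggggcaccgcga
Sec24d (chr3:123267246-123267545, plus strand): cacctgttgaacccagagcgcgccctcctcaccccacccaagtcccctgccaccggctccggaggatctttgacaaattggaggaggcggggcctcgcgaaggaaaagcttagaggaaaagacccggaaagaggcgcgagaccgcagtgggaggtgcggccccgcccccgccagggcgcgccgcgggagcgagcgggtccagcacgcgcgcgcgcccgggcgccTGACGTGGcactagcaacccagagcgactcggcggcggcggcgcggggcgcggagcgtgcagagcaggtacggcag
The matches in Arf1 and Sec23a are shown with 10 bases on each side, and Arf1 has the same match in 2 overlapping windows of different starts.
Arf1: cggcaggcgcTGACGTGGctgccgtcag
Sec23a: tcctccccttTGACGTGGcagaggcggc
In Copb1, Kdelr3 and Sec24d the motif ended 19 to 23 bases before the start, in Copb2 it ended on the start base, and in Sec23a it lay downstream of the start. Of the 7 genes only Stx5a had 2 matches in 1 window. They lay 9 to 16 and 39 to 46 bases downstream of the start. Stx5a was not called, and its log2 fold change was negative (-0.18 ± 0.16, SE).

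The coatomer genes differed in which SP2509 libraries were high. Of 9 genes 3 rose (Copb1, Copb2 and Arcn1), and the median log2 fold change was 0.29, or 0.06 without replicates 4 and 5. Arcn1, which encodes the delta subunit (chr9:44741564-44767845, minus strand, GRCm38), had 989.9, 989, 1086, 1294, 1216 and 1011 normalised reads in SP2509 replicates 1 to 6, against 760.2, 762, 602 and 669 in vehicle replicates 1 to 4. All 6 SP2509 libraries were above all 4 vehicle libraries, and the log2 fold change was 0.65 ± 0.12 (SE). Copb2, the beta-prime subunit (chr9:98563721-98588382, plus strand), had 830.5, 726, 817, 1174, 1197 and 729 in SP2509 and 538, 568, 512 and 533 in vehicle. The groups did not overlap, replicates 4 and 5 were highest, and the log2 fold change of 0.73 ± 0.16 became 0.53 without them. Copb1, the beta subunit, had 629, 564, 670.4, 766, 829 and 482 in SP2509 and 341, 393, 434 and 487 in vehicle, where SP2509 replicate 6 lay just under vehicle replicate 4. Its log2 fold change was 0.65 ± 0.16.

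The other 6 coatomer genes were not called. Copa, the alpha subunit, ranged from 1742 to 2910 with a median of 1868 in SP2509 and 1929.9 to 2273 in vehicle, with a log2 fold change of 0.00 ± 0.16. Cope, the epsilon subunit, had 2521 and 2459.7 in SP2509 replicates 4 and 5 and 1388, 1352, 1363 and 1446 in SP2509 replicates 1, 2, 3 and 6, against 1266, 1469.6, 1440 and 1312 in vehicle. Only that pair lay above the vehicle range, and the log2 fold change was 0.30 ± 0.20. The gamma subunit is encoded by Copg1 and Copg2. Copg1 had 739, 747, 815, 1270, 1253 and 779 in SP2509 and 819.6, 765, 832 and 735 in vehicle, and Copg2 had 388, 369, 347, 348, 249 and 208 in SP2509 and 293, 309, 224 and 239 in vehicle. Their log2 fold changes were 0.21 ± 0.17 and 0.23 ± 0.19, and only Copg1 was highest in replicates 4 and 5. Of exonic bases of Copg2 17.8% overlap Mest on the opposite strand, and Mest had a log2 fold change of 0.02 ± 0.29. Both zeta subunit genes were highest in replicates 4 and 5. Copz1 had 866, 845, 994, 1293, 1309 and 697 in SP2509 and 883, 904, 693 and 784 in vehicle (log2 fold change 0.26 ± 0.18), and Copz2 had 295, 245, 274, 1071, 1123 and 347 in SP2509 and 369, 392, 418 and 306 in vehicle (0.29 ± 0.43). In SP2509 replicates 1, 2, 3 and 6 Copz2 lay within or below the vehicle range, and its log2 fold change without replicates 4 and 5 was -0.36.

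Arf1, the GTPase that recruits coatomer to Golgi membranes (chr11:59211412-59228270, minus strand), had 3055, 2972, 3023, 2939.8, 3199.9 and 2883 normalised reads in SP2509 and 1450, 1935, 1812 and 1934 in vehicle. The SP2509 values lay within a narrow band above all vehicle values (2997 ± 80.2 against 1783 ± 229, SD, n = 4 each), and the log2 fold change of 0.77 ± 0.11 was 0.75 without replicates 4 and 5. Arf1 was called in both fits. Per kilobase of exon Arf1 was also the most abundant of the 40 genes, at 1435 ± 38.4 normalised reads in SP2509 and 853 ± 109.7 in vehicle (SD, n = 4 each). Arf4, a related GTPase of the ER-Golgi interface and the Golgi, had 947, 971, 1264, 1708, 1668 and 646 in SP2509 and 599, 756, 660.2 and 644 in vehicle. Replicate 6 fell within the vehicle range, and Arf4 was not called (log2 fold change 0.78 ± 0.24). Its exons overlap those of Pde12 on the opposite strand over 14.6% of their bases. Pde12 rose by 0.998 on the log2 scale (SE 0.24, limma adjusted p = 0.0262), and reads of the 2 genes may not be separated, since the strand setting of the counting is not given in the sources used here. Apart from Arf4, Copg2, Yif1b and Tmed7, no single other annotated gene overlapped more than 8.905% of the exonic bases of any of the 40 genes.

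Among the COPII genes 2 of 11 rose, Sec13 and Sar1a, with a median log2 fold change of 0.48 that was 0.34 without replicates 4 and 5. Sec13, an outer cage subunit that also serves in the nuclear pore, had 705, 714, 767, 994, 838 and 650.3 in SP2509 and 528, 493, 538 and 455 in vehicle. All SP2509 libraries were above all vehicle libraries, and the log2 fold change was 0.62 ± 0.12. Its cage partner Sec31a ranged from 1162 to 2737 with a median of 1388 in SP2509 and 1095 to 1250 in vehicle, with the highest values of 2737 and 2671 in replicates 4 and 5 and a log2 fold change of 0.50 ± 0.25, or 0.15 without them. Sec16a, the exit site scaffold, had 1561 and 1517 in SP2509 replicates 4 and 5, 808, 765, 849 and 807 in the other SP2509 libraries, and 942, 719, 733 and 723 in vehicle. Only that pair exceeded every vehicle library (log2 fold change 0.37 ± 0.22).

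The Sar1 GTPases differed in which libraries were high. Sar1a had 1547, 1577, 1613, 2052, 2061 and 2024 in SP2509 and 1153, 1423, 1225 and 1380.1 in vehicle. It was above every vehicle library in all SP2509 libraries, with replicates 4, 5 and 6 alike, and rose by 0.48 ± 0.13 on the log2 scale. Without replicates 4 and 5 Sar1a was not called. Sar1b, whose loss in humans impairs the export of chylomicrons from the ER, had 734, 694, 723, 946, 931 and 2050.2 in SP2509 and 432, 646, 607 and 415 in vehicle. Here replicate 6, the library with the most muscle transcript, was more than 2 times as high as any other library, and although the groups did not overlap Sar1b was not called (log2 fold change 0.86 ± 0.28). Sar1b took 75.1% of the Sar1 sum per kilobase in that library, against 56.7 to 58.6% in SP2509 replicates 1 to 5, and 47.3 to 59.6% in vehicle.

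Sec23b was highest in SP2509 replicates 4 and 5, and Sec23a in replicate 6. Sec23b had 320.3, 326, 403, 1073, 909.6 and 287 in SP2509 and 215, 299, 249 and 274 in vehicle (log2 fold change 0.89 ± 0.36, 0.36 without replicates 4 and 5). Sec23a had 265, 243, 291, 316, 254 and 446 in SP2509 and 167, 250.3, 303 and 249.6 in vehicle (log2 fold change 0.32 ± 0.20). Neither gene was called. As a share of the Sec23 sum per kilobase Sec23b took 72.3% and 73.4% in SP2509 replicates 4 and 5, 48.1 to 51.6% in replicates 1 to 3, 33.1% in replicate 6, and 38.7 to 49.7% in vehicle. These shares have no test, since they rest on the contrast by which the genes were chosen.

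The cargo-binding Sec24 genes differed among themselves. Sec24d had 245, 229, 319, 459.6, 532 and 236 in SP2509 and 179.9, 206, 209.7 and 212 in vehicle. Its groups did not overlap, but replicates 4 and 5 carried most of the difference and it was not called (log2 fold change 0.66 ± 0.24, 0.34 without them). Sec24a had 210, 231, 273, 510.2, 470.4 and 355 in SP2509 and 282, 226, 294 and 297 in vehicle (0.24 ± 0.24), again highest in that pair. Sec24b (629, 671, 659.9, 588, 584 and 585 in SP2509, 530.3, 637, 598 and 699 in vehicle) and Sec24c (1438, 1317, 1616, 1395, 1343 and 1498 in SP2509, 1808, 1427, 1525 and 1399 in vehicle) had overlapping groups, with log2 fold changes of 0.01 ± 0.10 and -0.10 ± 0.11. Per kilobase of exon Sec24d had 50.9 ± 19.3 normalised reads in SP2509 and 31.9 ± 2.35 in vehicle (SD, n = 4 each), and of the 40 genes only Sec24a was lower in vehicle, at 25.7 ± 3.12. Sec24c, the most abundant of the family, took 48.7 to 58.7% of the Sec24 sum in SP2509 and 55.6 to 66.8% in vehicle.

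**Figure D3:**
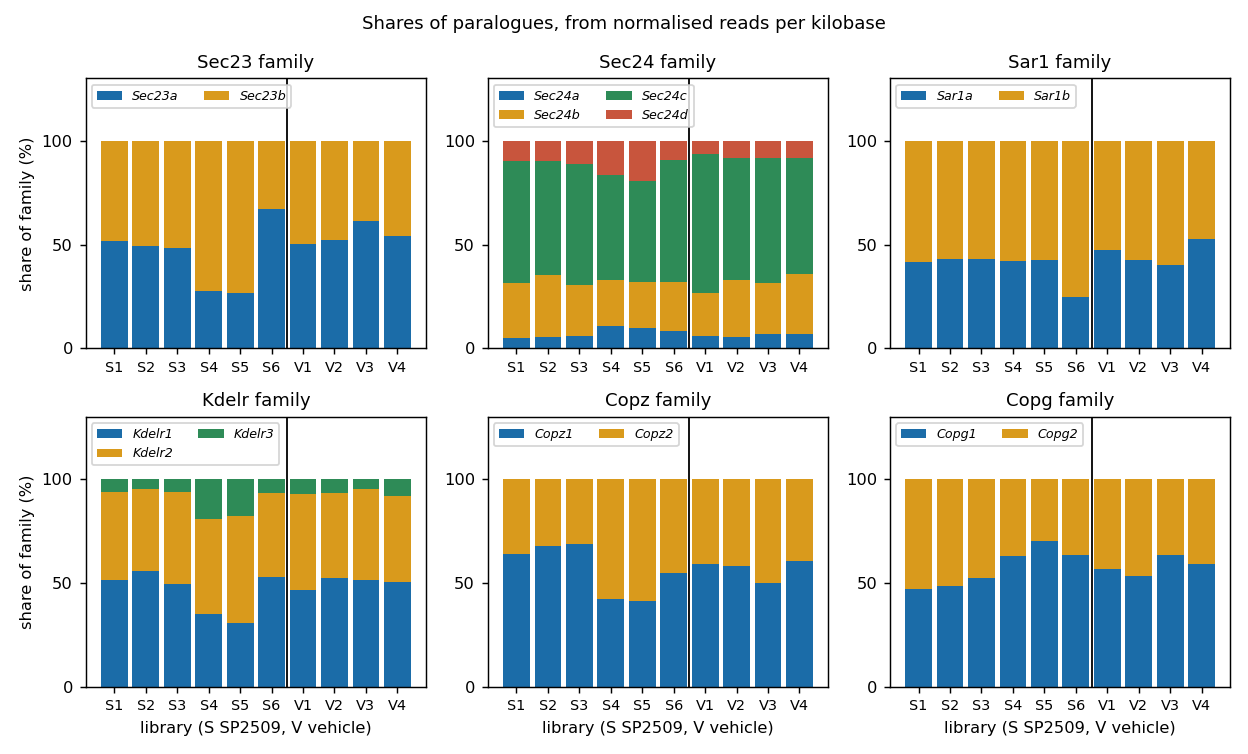
Stacked bars give the share of each paralogue, in percent, of the summed normalised reads per kilobase of its family in each library (S1 to S6, SP2509; V1 to V4, vehicle). In S4 and S5 the shares of Sec23b (72.3% and 73.4%), Copz2, Sec24d and Kdelr3 are larger than in any other library, and Sar1b is largest in S6 (75.1%).

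Genes of the YIP1 family, small membrane proteins of early secretory membranes, gave the largest fold change among those called. Yif1a (chr19:5088538-5092881, plus strand) had 385, 359, 361, 372, 362 and 564 in SP2509 and 148, 155, 208 and 207 in vehicle. Every SP2509 library was above every vehicle library, replicate 6 was highest, and the log2 fold change of 1.15 ± 0.16 (SE) was 1.20 without replicates 4 and 5. Yif1b had 247, 233, 205, 236, 234 and 347 in SP2509 and 128, 141, 148 and 136 in vehicle, also without overlap and with the highest value in replicate 6. It rose by 0.83 ± 0.15. Of its exonic bases 26.5% overlap the gene 2200002D01Rik on the opposite strand, which was not called (log2 fold change 0.20 ± 0.26). Yipf5 ranged from 315 to 490.2 with a median of 381 in SP2509 and 290.2 to 439 in vehicle, and it was not called (log2 fold change 0.09 ± 0.15).

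The p24 proteins are small type I membrane proteins of COPI and COPII vesicles, known for carrying GPI-anchored cargo. Of their 5 genes 4 rose. Tmed10 had 1436, 1358, 1438, 1939, 1939.8 and 1158 normalised reads in SP2509 and 827, 921, 778 and 856 in vehicle, and Tmed2 had 1489, 1509.5, 1660.3, 1971, 1939.8 and 1401 in SP2509 and 933, 908, 832 and 1059 in vehicle. In both the groups did not overlap, replicates 4 and 5 were highest and replicate 6 lowest within SP2509. The log2 fold changes were 0.85 ± 0.15 for Tmed10 and 0.83 ± 0.13 for Tmed2 (0.67 and 0.70 without replicates 4 and 5). Tmed9 had 1125, 1200.2, 1290.2, 1575, 1632 and 924 in SP2509 and 705, 811, 740.4 and 746 in vehicle and rose by 0.76 ± 0.15, with the same order of libraries. Tmed7 had 694, 756, 867, 676, 677 and 603 in SP2509 and 506, 496, 525 and 593 in vehicle and rose by 0.42 ± 0.11, but its highest values were in replicates 2 and 3. Tmed7 shares 9.48% of its exonic bases with Ticam2 on the same strand, a gene that lay under the filter. Tmed3 behaved differently. It had 1793 and 1842 in SP2509 replicates 4 and 5 and 333, 404, 354 and 377 in SP2509 replicates 1, 2, 3 and 6, against 309.7, 464, 338 and 335 in vehicle. Outside that pair Tmed3 lay within the vehicle range, and its log2 fold change of 0.81 ± 0.51 was 0.04 without the pair.

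**Figure D4:**
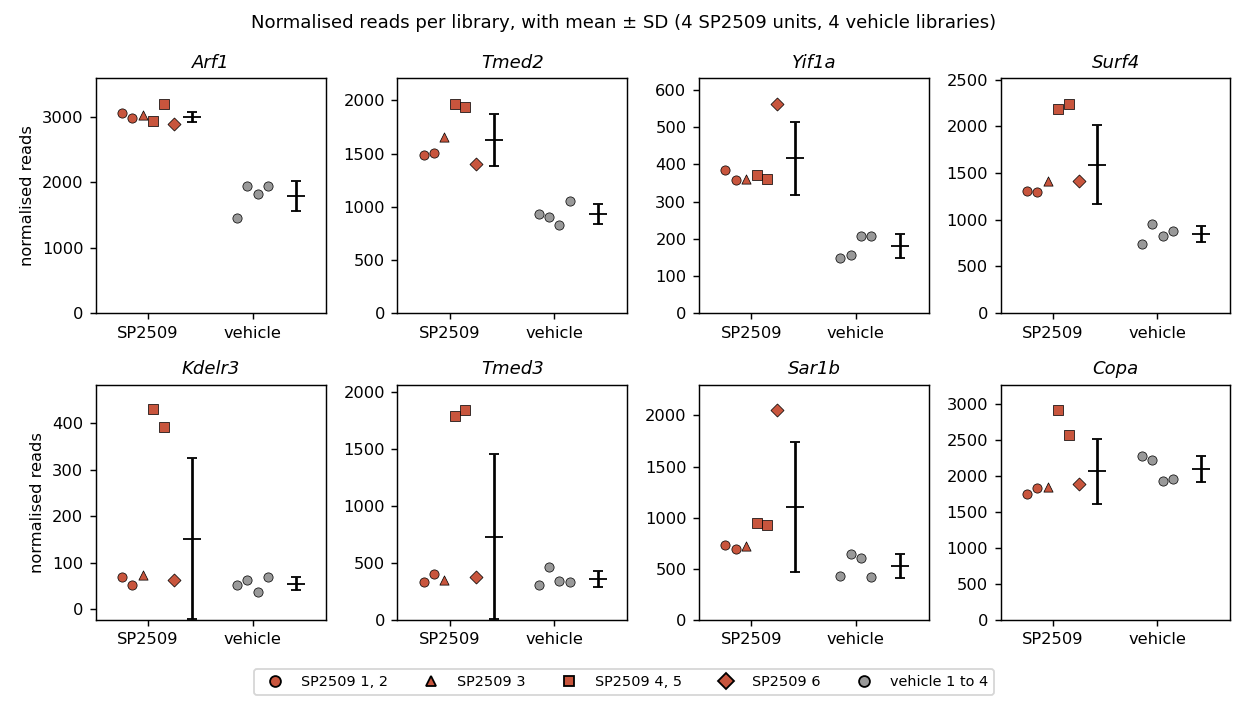
Normalised reads per library, SP2509 left of vehicle in each panel, with the mean ± SD over 4 SP2509 units and 4 vehicle libraries; marker shapes separate SP2509 replicates 1 and 2, 3, 4 and 5, and 6. Arf1 is high in every SP2509 library, whereas Tmed3 and Kdelr3 are high in replicates 4 and 5 alone (Kdelr3 429.7 and 391) and Sar1b in replicate 6 (2050.2).

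Of the 6 cargo receptor genes 4 rose (Surf4, Lman1, Lman2 and Kdelr1), with a median log2 fold change of 0.82, or 0.50 without replicates 4 and 5. Surf4, a receptor for soluble secreted proteins (chr2:26920040-26933928, minus strand), had 1306, 1301, 1414, 2188, 2243 and 1418 in SP2509 and 742, 949, 821 and 875 in vehicle. The groups did not overlap, and the log2 fold change of 0.92 ± 0.18 was 0.69 without replicates 4 and 5. Lman1, the lectin that exports clotting factors from the ER, had 690.4, 697, 731, 1405, 1499 and 756 in SP2509 and 539.6, 479, 466 and 519.9 in vehicle. It too was above vehicle in all SP2509 libraries, and its log2 fold change was 0.86 ± 0.23 with and 0.52 without replicates 4 and 5, where it was highest. Lman2, a related lectin, had 1225, 1239, 1327, 1299.9, 1256 and 1066 in SP2509 and 769, 967, 722 and 873 in vehicle. Its SP2509 values were close to each other and above all vehicle values (log2 fold change 0.57 ± 0.11).

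The KDEL receptors return ER chaperones that escape to the Golgi, and their genes diverged in replicates 4 and 5. Kdelr1 had 752, 813, 794, 1032, 889.9 and 658 in SP2509 and 445, 640.3, 536 and 563 in vehicle. The groups did not overlap, and Kdelr1 rose by 0.59 ± 0.14 on the log2 scale. Kdelr2 had 610, 564, 697, 1329.7, 1472 and 489 in SP2509 and 434, 488, 448 and 449 in vehicle, without overlap, although SP2509 replicate 6 was within 1 normalised read of vehicle replicate 2. It was not called (log2 fold change 0.78 ± 0.29, 0.37 without replicates 4 and 5). Kdelr3 had 429.7 and 391 in SP2509 replicates 4 and 5 and 70.0, 52.0, 73.3 and 61.9 in SP2509 replicates 1, 2, 3 and 6, against 51.9, 63.0, 36.6 and 68.2 in vehicle. The pair was more than 5 times as high as any other library, and the log2 fold change of 1.14 ± 0.60 was 0.25 without it. Per kilobase Kdelr3 took 19.2% and 17.8% of the sum of the KDEL receptor genes in SP2509 replicates 4 and 5, 4.7 to 6.6% in SP2509 replicates 1, 2, 3 and 6, and 4.7 to 8.1% in vehicle. In the same pair Muc5b, a secreted mucin of mucous glands, had 270597 and 281216 normalised reads, against at most 644 in every other library. Of the 14 listed gland genes Prol1 had 0 in that pair, and Lpo, Car6 and Cst10 had at most 48.7. A link between Kdelr3 and gland content was not tested.

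The SNARE genes, whose proteins fuse vesicles with their target, had the smallest median fold change of the 7 roles. None of the 4 was called, and that median was 0.06 on the log2 scale, or -0.11 without replicates 4 and 5. Stx5a had 722, 720.1, 801, 1169.6, 1150.2 and 732 in SP2509 and 1048, 955, 1001 and 912 in vehicle. It was below every vehicle library in SP2509 replicates 1, 2, 3 and 6 and above every one in replicates 4 and 5, so its log2 fold change of -0.18 ± 0.16 was -0.40 without that pair, still not called. Gosr2 had 579, 536, 603, 585, 601 and 606 in SP2509 and 402, 569.7, 386 and 441 in vehicle, where vehicle replicate 2 reached the SP2509 values (log2 fold change 0.39 ± 0.12). Sec22b ranged from 372 to 639 with a median of 445 in SP2509 and 386 to 516 in vehicle (0.11 ± 0.15), and Bet1 ranged from 253 to 437 with a median of 308 in SP2509 and 292 to 349 in vehicle (0.02 ± 0.16).

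**Figure D5:**
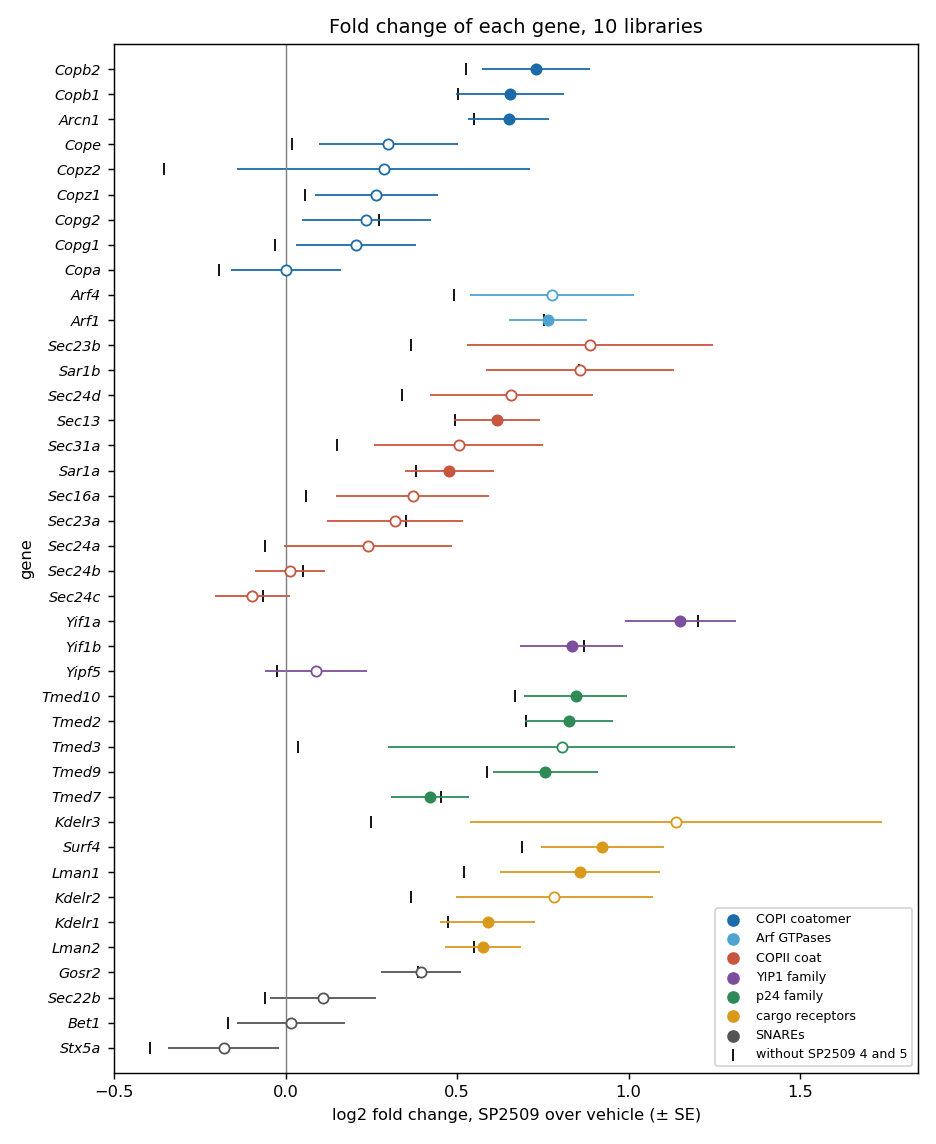
Points give the log2 fold change, SP2509 over vehicle, of each of the 40 genes with its SE in the fit over 10 libraries, coloured by role; vertical ticks give the fold change without SP2509 replicates 4 and 5. The ticks lie far left of the points for Kdelr3 (0.25 against 1.14), Tmed3 (0.04 against 0.81) and Copz2 (-0.36 against 0.29), and close to them for Arf1 and Yif1a.

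A wider list of 93 other ER to Golgi genes, none of them among the 40, held 90 tested genes. Of these 15 rose and 0 fell, with 69 positive fold changes and a median of 0.24, beside the same 4.95% of tested genes called higher. At an unadjusted p under 0.05, 4 were lower, a share that was not counted over all tested genes. edgeR called 0 and DESeq2 1 lower, beside 585 and 1388 of the 17088 tested genes. Without SP2509 replicates 4 and 5, 3 were called, beside 1.28% of tested genes. With the pairs merged 0 were called (limma), with 26 at an unadjusted p under 0.05 beside 3632 of the 17088 tested genes. The smallest p belonged to Rab2a, a GTPase of the ER-Golgi intermediate compartment, with 1435, 1485, 1542, 1545, 1592 and 1793 normalised reads in SP2509 and 1009, 1130.2, 984 and 913 in vehicle. Its groups did not overlap, and it rose by 0.63 ± 0.10 (limma adjusted p = 0.0118, 0.0718 with the pairs merged). The GTPase genes Rab1a and Rab1b, which control tethering of ER-derived vesicles, rose by 0.64 ± 0.13 and 0.60 ± 0.12 (adjusted p = 0.0150 and 0.0160, 0.0796 and 0.0735 merged). The YIP1 family gene Yipf4 rose by 0.58 ± 0.11 (adjusted p = 0.0137, 0.0751 merged) and Trappc4, a subunit of the TRAPP tethering complexes, by 0.56 ± 0.12 (adjusted p = 0.0195, 0.0798 merged). The cornichon cargo receptor genes Cnih4 and Cnih1 rose by 0.58 ± 0.13 and 0.64 ± 0.15 (adjusted p = 0.0223 and 0.0244, 0.0751 and 0.0919 merged), and Scfd1, a Sec1-type regulator of SNARE pairing, by 0.57 ± 0.13 (adjusted p = 0.0268, 0.0950 merged). For these 8 genes every SP2509 library lay above every vehicle library. The same held for 16 of the 90 tested genes of this list and for 6.54% of all tested genes. The 8 were picked by their p in this same contrast, so their lack of overlap adds no support.

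Some transcription factor genes of this pathway were also highest in SP2509 replicates 4 and 5. Atf6 rose by 0.69 ± 0.18 (limma adjusted p = 0.0376, 0.108 merged), with 271, 252, 291, 314, 293 and 401 normalised reads in SP2509 and 137, 161, 252 and 211 in vehicle, although SP2509 replicates 4 and 5 were not its highest. Xbp1 had 1265, 1239.8, 1265, 2926, 2848 and 1248 in SP2509 and 949, 895, 947 and 999 in vehicle. Every SP2509 library was above every vehicle library, but Xbp1 was not called (log2 fold change 0.81 ± 0.27, adjusted p = 0.0774). Creb3l1, which drives secretory pathway genes in secretory cells, had 3185 and 3284 in SP2509 replicates 4 and 5 and 58.8, 58.6, 62.0 and 72.4 in the other SP2509 libraries, against 55.6, 99.8, 60.5 and 50.3 in vehicle. It was not called (1.86 ± 1.27, adjusted p = 0.363), and neither was its relative Creb3l4, which had 279 and 292 in that pair and at most 15.7 in SP2509 replicates 1, 2, 3 and 6, or 16.9 in vehicle (1.93 ± 1.03, adjusted p = 0.242). The log2 fold changes of Creb3l2, Creb3, Atf6b, Atf4 and Ddit3 were 0.37 ± 0.14, 0.43 ± 0.20, 0.23 ± 0.16, 0.21 ± 0.15 and -0.03 ± 0.17 (adjusted p = 0.108, 0.184, 0.376, 0.366 and 0.936).

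The counts also moved with the scaling. Scaled to reads outside mitochondrial genes, the median of all tested genes was -0.13 and that of the 40 genes 0.43, which is 0.56 above it, as with the deposited scaling. Under that scaling 296 genes of the table were higher and 1442 lower, against 846 higher and 709 lower as deposited, and 9 of the 40 genes were called higher. TMM scaling gave 1288 higher and 575 lower and called 18 of the 40, and quantile normalization gave 666 higher and 1060 lower and called 13. Under each of the 30 settings tried, the 16 called genes kept a positive fold change and none of the 40 was called lower. The settings refit the libraries in which these genes were called, so the kept sign adds no support. The call itself was kept in 10 settings for Tmed7, 11 for Sar1a, 14 for Lman1, 16 for Copb1 and 17 for Kdelr1. For Arf1, Arcn1, Tmed2, Tmed10 and Yif1a it was kept in 28.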

How the data were processed

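RNA was extracted with TRIzol and a column, selected on poly-T beads and primed with random hexamers, per the labels' protocols. HISAT2, featureCounts and mm10 are named in the submitters' processing notes, with no version or role. The annotation, the strand setting and the scaling tool were not given in the sources used here. Deposited values hold a normalised signal, read counts divided by 1 size factor per library: 100% of values lay within 0.01 of a whole number of reads. 1 read is worth 0.727 to 0.873 normalised reads in SP2509 and 0.898 to 1.85 in vehicle, so counting error is larger in vehicle. The lowest member count in a library was 26 reads.

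limma 3.58.1 (R 4.3.3; trend, robust, two-sided) was fitted on log2(value + 1) to 17088 genes that reached 10 in 4 or more libraries, over 10 libraries, with Benjamini-Hochberg adjustment and calls at 0.05. Fold changes on this scale understate low genes. On recovered whole reads edgeR 4.0.16 called 912 genes higher and 585 lower, and DESeq2 1.42.0 called 1618 higher and 1388 lower. The fits were tried on simulated counts with all 10 libraries drawn independently. That setting lacks the close pairs found here, so it does not bear on how the pairs affect the calls. Alternatives were the pseudocount, the filter, 3 other scalings, limma settings, a replicate block, libraries left out, merged or correlated pairs, a looser threshold and thinning. Replicate numbers were not used as pairs. Positions and exon lengths are those of GENCODE M21 (GRCm38, which is mm10), and 27113 IDs matched a symbol. Named genes are all 40, the 8 other ER to Golgi genes with the smallest p and the transcription factor genes. Muc5b and other gland markers, Pde12 and other overlapping genes were added beside the results they touch. The members and lists were chosen with earlier results of these data known. Protein sequences were not analysed here. Python 3.11.15, pandas 2.3.3, NumPy 2.4.6 and matplotlib 3.10.9 made tables and figures.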

Additional observations from a re-analysis of the deposited data

Results flagged for a closer look

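Of 80 groups of 4 values (the 4 SP2509 units and the 4 vehicle libraries for each of the 40 genes), 13 held a value far from the other 3 by Dixon's criterion, which chance gives in about 1 of 20 groups. The units share their libraries across genes, so these values are not independent. In SP2509, 10 of them were the mean of replicates 4 and 5, the libraries with the highest sums of gland markers. The normalised reads there were 2742 for Copa, 1262 for Copg1, 2490.3 for Cope, 1097 for Copz2, 991 for Sec23b, 1539 for Sec16a, 1818 for Tmed3, 410.4 for Kdelr3, 1452 for Lman1 and 2216 for Surf4. Another 2 were SP2509 replicate 6, the library with the highest sum of muscle markers and a gland marker sum of 12426, with 2050.2 for Sar1b and 564 for Yif1a. In vehicle 1 was found, replicate 1 with 942 for Sec16a. The part of gland and muscle content in these values was not tested.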

How the results depend on the processing

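Under 30 alternatives 1027 of 1200 values for single genes of the 40 kept their call, or were called under neither and moved by less than 1 SE; 119 lost the call, 28 gained it and 26 moved further. No called gene changed sign, but 8 of the uncalled genes did under at least 1 alternative (44 values, none of them called). The called genes were picked by their difference in these same libraries, so their kept sign adds no support. The median fold change of the 40 genes ran from 0.36 (without replicates 4 and 5) to 0.67 (without replicates 1 and 2). Each value lay within 0.28 of the 0.58 of the main fit. That 0.28 is the SD of the medians of the 4 SP2509 units, and the high median of replicates 4 and 5 enters it. The counts moved more. All genes higher numbered 553 with no filter on low values, 1288 with TMM, 296 with scaling to reads outside mitochondrial genes, 490 without trend, 2381 with library weights, 220 with correlated pairs, 219 without SP2509 replicates 4 and 5, 80 without SP2509 replicates 1 and 2, 1618 with DESeq2, 1713 at an adjusted p under 0.1, and 171 to 1971 with 1 library left out. All genes lower numbered 1442 with scaling outside mitochondrial genes, 1778 with weights, 135 with correlated pairs, 156 without replicates 4 and 5, 70 without replicates 1 and 2, 1388 with DESeq2, 1388 at 0.1, and 107 to 1488 with 1 library left out. The 40 genes had 9 called higher with scaling outside mitochondrial genes, 10 with correlated pairs, 6 without replicates 1 and 2, and 6 (without vehicle replicate 1) to 21 (without SP2509 replicate 6) with 1 library left out. Other ER to Golgi genes called higher numbered 2, 8, 27, 3, 3, 1 and 8 with scaling outside mitochondrial genes, no trend, weights, correlated pairs, no replicates 4 and 5, no replicates 1 and 2, and thinning to 4730016 reads, and 2 to 25 with 1 library left out. Called lower were 1 with a minimum of 50, 3 with scaling outside mitochondrial genes, 2 with quantile normalization, 5 with weights, 3 with the replicate block, 1 with DESeq2, 2 at 0.1, and 0 to 4 with 1 library left out. With the pairs merged (limma) or summed (edgeR) all these counts were 0, with 3632 and 3875 genes at an unadjusted p under 0.05. The cause was not tested, except that leaving out or merging libraries leaves fewer samples. With the replicate number as a block 17 of the 40 genes were higher, and 1125 genes higher and 769 lower in all; same-numbered libraries correlated at 0.13, 0.03, -0.20 and 0.13, and not every library matched its own number best, so the numbers were not taken as pairs. Values rest on at least 26 reads per library for the 40 genes. With 4 units per group the design limits what single genes can show, and the labels do not say whether these units are separate mice.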

Other observations

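The 93 other ER to Golgi genes are counted here by role in the 10-library fit (limma, log2 fold change ± SE). Of 13 tested p24 and cargo receptor genes outside the 40, 4 rose, among them Ergic1 (0.82 ± 0.21, adjusted p = 0.0347), which cycles between ER and Golgi, and Bcap31 (0.36 ± 0.10, adjusted p = 0.0450), an ER membrane chaperone. None of these 4 was a p24 gene. The tested p24 genes Tmed1, Tmed4, Tmed5 and Tmed8 were not called (0.44 ± 0.23, -0.04 ± 0.14, 0.15 ± 0.14 and 0.11 ± 0.15). Of 34 tethering genes 6 rose, including the Golgi stacking gene Gorasp2 (0.66 ± 0.17, adjusted p = 0.0362) and Trappc13 (0.44 ± 0.11, adjusted p = 0.0361). Of 6 other YIP1 family genes 2 rose, and all 6 had a positive fold change. Of 10 COPII exit site genes 1 rose, Tfg (0.59 ± 0.15, adjusted p = 0.0361), which organises exit sites. Of 7 Arf cycle genes none was called, and of 11 further SNARE and fusion genes 1 rose. No difference between these roles was tested. With the pairs merged no gene of these roles was called (adjusted p between 0.0718 and 0.143 for the 15 called genes). These genes, other than Yipf4, Rab2a, Rab1a, Rab1b, Trappc4, Cnih4, Cnih1 and Scfd1, were chosen for naming after their values were seen.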
